A study of Mus musculus with 31 samples.

Results

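The tumor necrosis factor (TNF) superfamily pairs ligands, most of them membrane proteins that can be shed from the cell surface, with receptors that signal once several of them are brought together. Receptors with a death domain can recruit caspases, other receptors bind TRAF adaptors and activate NF-κB, and decoy receptors bind a ligand without passing on a signal. In brain tissue the family is best known for TNF signaling between microglia, astrocytes, endothelial cells and neurons, for death receptors on target cells of T lymphocytes, and for costimulatory pairs on activated T cells.

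Members were the genes of the count table named Tnf, Lta, Ltb, Ltbr, Fas or Fasl, or carrying a numbered Tnfsf or Tnfrsf symbol. Of 36 such symbols listed, 23 were found among the 15648 genes of the table. They were 7 ligands, 5 receptors with a death domain, 8 receptors without one and 3 decoy receptors. The 13 others were Lta, Fasl, Tnfsf4, Tnfsf8, Tnfsf11, Tnfsf14, Tnfsf15, Tnfsf18, Tnfrsf4, Tnfrsf13c, Tnfrsf17, Tnfrsf18 and Tnfrsf26, which were not analysed here. Genes entered the table when 15 or more mice had 15 or more counts. Of the 23 members, 13 had 15 counts in every mouse, whereas Ltb, Tnf, Tnfrsf14, Tnfrsf9 and Tnfsf9 reached this in fewer than 8 of the 15 rAAV-control mice. Ltb passed with exactly 15 mice, 12 of them rAAV-OVA mice. Passing largely through rAAV-OVA mice selects members that were higher in these mice on at least some days. The rule also works the other way. Fewer than 15 rAAV-OVA mice were sampled after the earliest day, so a gene reaching 15 counts in these alone could not enter. Whether any of the 13 absent members was left out for this reason was not tested. The counts below therefore describe the members that passed and not the superfamily as a whole.

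The data are bulk RNA-seq of the left hippocampus of 31 adult OT-I/Rag1-/- mice, all of which were injected into the dorsal CA1 region of both hemispheres and received ketoprofen. OT-I mice carry a transgenic T cell receptor for an ovalbumin (OVA) peptide, and Rag1 deficiency leaves them without other mature T cells and without B cells. The rAAV-OVA mice received a virus in which the hSyn promoter, which is active in neurons, drives OVA and mCherry, and the rAAV-control mice one encoding mCherry alone. The groups held 4 mice each at 2, 5, 8 and 28 d after injection, except rAAV-control at 8 d with 3 mice. Libraries held between 19046977 and 57407902 counts. Values are CPM, counts scaled to 1000000 per library with TMM factors, and SE is the standard error of the Log2FC. In edgeR's quasi-likelihood test over all genes, a member was called when its FDR was no higher than 0.05 and its Log2FC was 0.66 or more in either direction. The model holds 2 surrogate variables, and Log2FC is adjusted for them. Without them, the size of the Log2FC was larger for 17 of the 18 members that were called or whose groups did not overlap at 5 d, and for 19 of 21 at 28 d, with a median difference of 0.53 and 0.58. It was larger for 6 of 13 at 8 d, with a median difference of -0.07. The fold moved by more than 1.5 times for 8 members at 5 d and 10 at 28 d, among them Tnf, Ltb, Tnfrsf9, Tnfrsf14, Tnfrsf1b, Tnfsf10, Tnfsf13b and Fas on both days, and Tnfrsf10b and Tnfrsf11b at 28 d.

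All 8 hippocampal neuron markers were in the table, with summed levels of 714 to 1066 CPM in rAAV-OVA and 727 to 878 CPM in rAAV-control mice at 2 d. On later days these sums were lower in every rAAV-OVA mouse, at 615 to 676 against 885 to 1055 CPM at 5 d, 619 to 659 against 848 to 1058 CPM at 8 d and 360 to 659 against 798 to 932 CPM at 28 d. Libraries that stood apart were rAAV-control mouse D720 at 8 d, whose members and T cell markers were high for its group, and rAAV-OVA mouse D844 at 28 d, whose members were low. The summed level of the 3 T cell markers used was 39.6 CPM in D720 against 4.14 and 4.97 CPM in the other two rAAV-control mice at 8 d. It was 35.8 CPM in D844 against 309.5 to 722.8 CPM in the other rAAV-OVA mice at 28 d. Whether these 2 libraries differ in their injection, handling or labelling was not tested, and both are given under their labels. At 2 d, rAAV-control mouse D743 had 284.9 CPM of the 8 monocyte markers against 126 to 191 CPM in the other rAAV-control mice.

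The comparison at each day asks how the hippocampus of mice whose neurons received the OVA construct differs from that of mice given mCherry alone. At 2 d none of the 23 members was called higher or lower, with backgrounds of 0 and 0% of all genes. From 5 d on, most members called were higher in rAAV-OVA mice. These were 16 of 23 members (69.6%) at 5 d, 11 (47.8%) at 8 d and 18 (78.3%) at 28 d. The share of all genes called higher was 9.56% at 5 d, 9.36% at 8 d and 12.7% at 28 d. Among members called lower, there were 0 at 5 d and 0 at 8 d, and 1 at 28 d, Tnfrsf25, against 4.67%, 0.588% and 4.86% of all genes. The median Log2FC over the members was -0.46 at 2 d, 1.38 at 5 d, 1.11 at 8 d and 1.35 at 28 d, and over all genes it lay between -0.03 and 0.01.

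**Figure D1:**
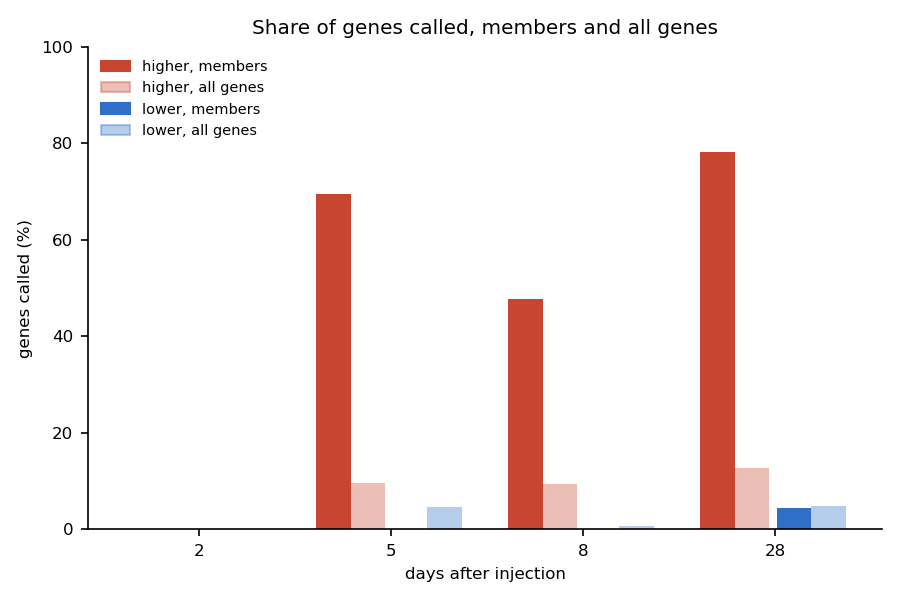
Percentage of genes called higher or lower in rAAV-OVA mice (vertical axis) at each day after injection (horizontal axis), for the 23 members (solid bars) and all 15648 genes (pale bars). The members' share called higher was 69.6% at 5 d, 47.8% at 8 d and 78.3% at 28 d, and none was called at 2 d.

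The single mice can be read without a model. The rAAV-OVA mice were all higher than the highest rAAV-control mouse for 17 members at 5 d, 9 at 8 d and 15 at 28 d, where 21%, 14.4% and 15% of all genes did. At 2 d this held for 0 members and for 2.22% of all genes. They were all lower than the lowest rAAV-control mouse for 2 members at 2 d, Tnfrsf10b and Tnfrsf13b, and for 1 at 5 d, Tnfrsf19. The shares of all genes below were 1.94% at 2 d, 19.6% at 5 d, 11.9% at 8 d and 14% at 28 d. At 28 d, where both batches are present, the rAAV-OVA mice lay above for 21 members in batch 1 and for 17 in batch 2, and below for 0 and 1. With 2 mice against 2, the shares of all genes above were 30% and 30.2%, and below 35.5% and 27.2%. At 2 d they lay above for 1 and 2 members and below for 10 and 3, where the shares of all genes were 18.8% and 18.5% above and 19% and 17.6% below.

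In total 10 members were called on 3 days, as were 6.26% of all genes, namely the ligands Tnf, Ltb, Tnfsf10 and Tnfsf13b and the receptors Tnfrsf1a, Tnfrsf1b, Tnfrsf9, Tnfrsf14, Tnfrsf10b and Fas. The receptors Ltbr, Tnfrsf11a, Tnfrsf11b, Tnfrsf13b and Tnfrsf23 were called on 2 days, as were 4.28% of all genes. On a single day 6 were called, against 14.4% of all genes. They were Tnfsf9 and Tnfsf13 at 5 d, and Tnfsf12, Tnfrsf8, Tnfrsf22 and Tnfrsf25 at 28 d. Tnfrsf19 and Tnfrsf21 were called on none.

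**Figure D2:**
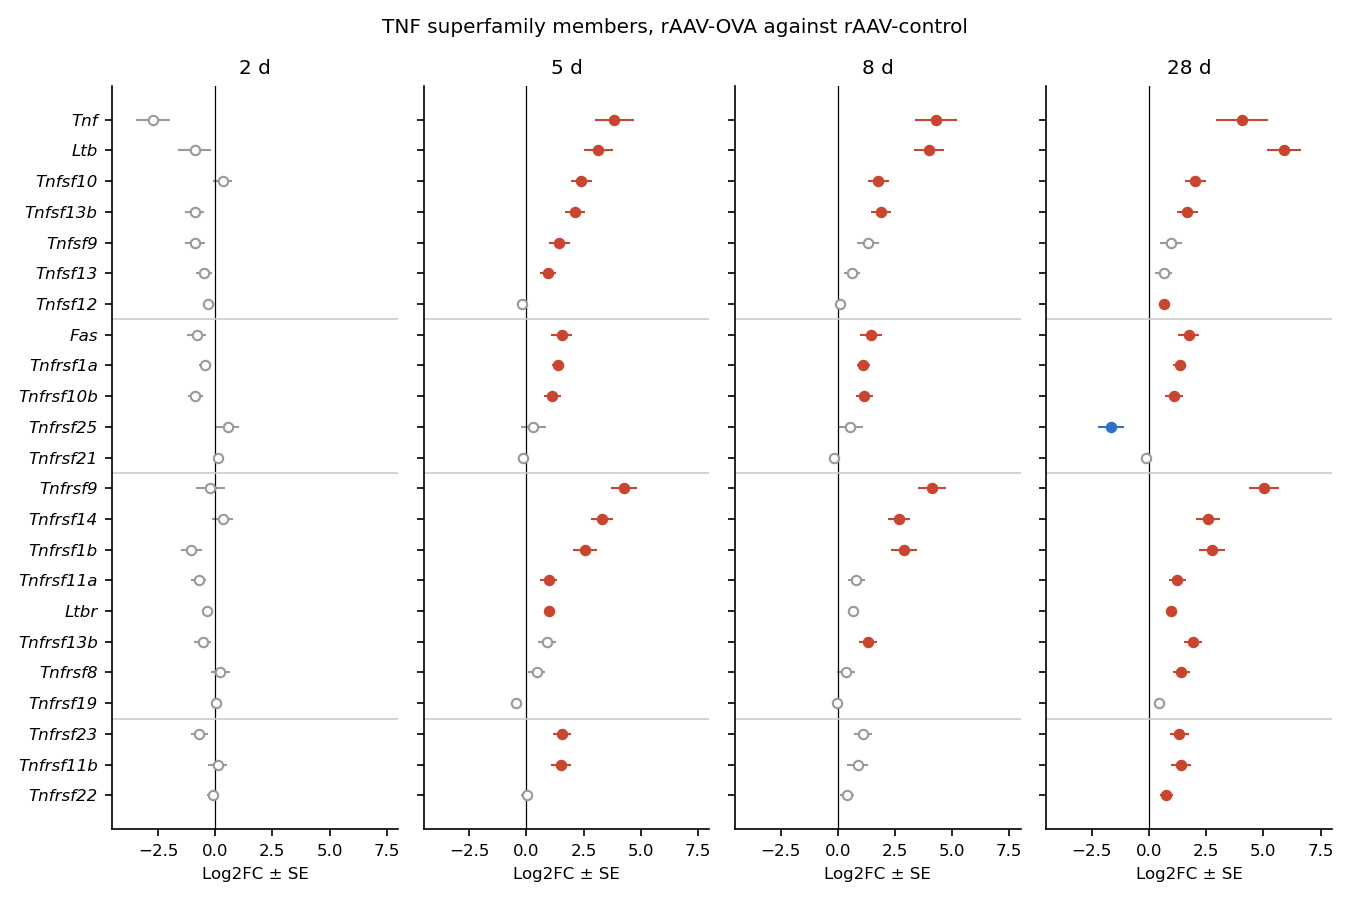
Log2FC of rAAV-OVA against rAAV-control with its SE (horizontal axis) for each of the 23 members (vertical axis) at 2, 5, 8 and 28 d, ordered by ligands, death domain receptors, other receptors and decoy receptors from top to bottom. Filled red points were called higher, the filled blue point (Tnfrsf25 at 28 d) was called lower, and open points were not called. Red points fill most rows at 5 d and 28 d and none at 2 d.

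The calls at 8 d rested on few mice. They numbered 4 without rAAV-control mouse D722, 6 without rAAV-control mouse D696 and 12 without D720, while the share of all genes called in either direction was 3.23%, 7.83% and 10.8%. In the 8 d mice alone without covariates 0 members and 0% of all genes were called, with the smallest FDR at 0.0592 and an unadjusted p under 0.05 for 17 of 23 members and 30.2% of all genes, and on all mice DESeq2 called 12 without shrinkage (10.6% of all genes) and 10 with ashr (7.71%), and limma voom 10 (9.82%). At 28 d 17 members and 14.7% of all genes were called without D844, and Tnfrsf8 and Tnfrsf25 were the calls lost.

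Tnf (ENSMUSG00000024401.15), the founding ligand, is made by activated myeloid cells and T cells. At 8 d it reached 4.84, 2.17, 3.4 and 6.5 CPM in the 4 rAAV-OVA mice and 0, 0.717 and 0.119 CPM in the rAAV-control mice. The groups did not overlap, with a Log2FC of 4.29 ± 0.91 (FDR = 0.0023), and the highest rAAV-control value belonged to D720. Without D722 the FDR was 0.0568 and Tnf was not called at 8 d. At 5 d rAAV-OVA mice had 2.53 to 9.23 CPM against 0.0365 to 0.305 CPM, a Log2FC of 3.84 ± 0.86 (FDR = 0.00183). At 28 d they had 2.41, 2.36, 3.74 and 0.138 CPM, the lowest being D844. The 4 rAAV-control mice then held 4 Tnf counts in all, so the Log2FC of 4.06 ± 1.15 (FDR = 0.00936) is set by few reads. Without surrogate variables the Log2FC of Tnf was 5.20 at 5 d and 5.61 at 28 d.

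At 2 d the order of the Tnf values was the other way round. The rAAV-OVA mice had 0.11, 0.421, 0.0325 and 0.955 CPM and the rAAV-control mice 1.59, 4.76, 0.474 and 1.08 CPM. These values overlapped and the Log2FC of -2.72 ± 0.75 did not pass the test (FDR = 0.300). The rAAV-control mice with the most Tnf, D743 and D740, also had the most S100a8, a neutrophil marker, at 28.3 and 9.93 CPM against 0.22 to 1.47 CPM in the other mice of 2 d. The part of neutrophils in the Tnf values was not tested. Of the 23 members, 5 had an unadjusted p under 0.05 at 2 d, as did 9.13% of all genes. Leaving out each mouse in turn gave 1 to 7 members and 4.29% to 13.2% of all genes. DESeq2 and limma voom also called 0 members, with 0.0639% and 0% of all genes called.

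The receptors of TNF are Tnfrsf1a, found on most cells and carrying a death domain, and Tnfrsf1b, which has none and in brain is abundant in microglia. For Tnfrsf1a (ENSMUSG00000030341.18) the values at 5 d were 75.9, 54.3, 55.7 and 62.4 CPM in rAAV-OVA mice and 13.6, 19.2, 15 and 20.2 CPM in rAAV-control mice. Each rAAV-OVA mouse was well above each rAAV-control mouse, with a Log2FC of 1.38 ± 0.28 (FDR = 0.000789). At 8 d rAAV-control mouse D720 had 40.6 CPM, above the 33.1 CPM of rAAV-OVA mouse D701, and the Log2FC was 1.11 ± 0.29 (FDR = 0.0097). The 8 d call was lost without covariates (FDR = 0.0603) and without D696 or D722 (FDR = 0.0629 and 0.170). At 28 d it was 1.35 ± 0.29 (FDR = 0.00127).

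Tnfrsf1b (ENSMUSG00000028599.11) differed more in size. At 8 d it reached 143, 43.8, 65.0 and 101 CPM in rAAV-OVA mice and 5.39, 27.8 and 6.92 CPM in rAAV-control mice, a Log2FC of 2.90 ± 0.56 (FDR = 0.00106). The groups did not overlap although D720 was again the highest rAAV-control mouse. At 28 d, 3 rAAV-OVA mice had 54.1 to 117 CPM and D844 had 11.2 CPM, still above the highest rAAV-control mouse at 6.43 CPM. The Log2FC of both receptors was positive on each of the last 3 days. Whether the difference was larger for Tnfrsf1b than for Tnfrsf1a was not tested.

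**Figure D3:**
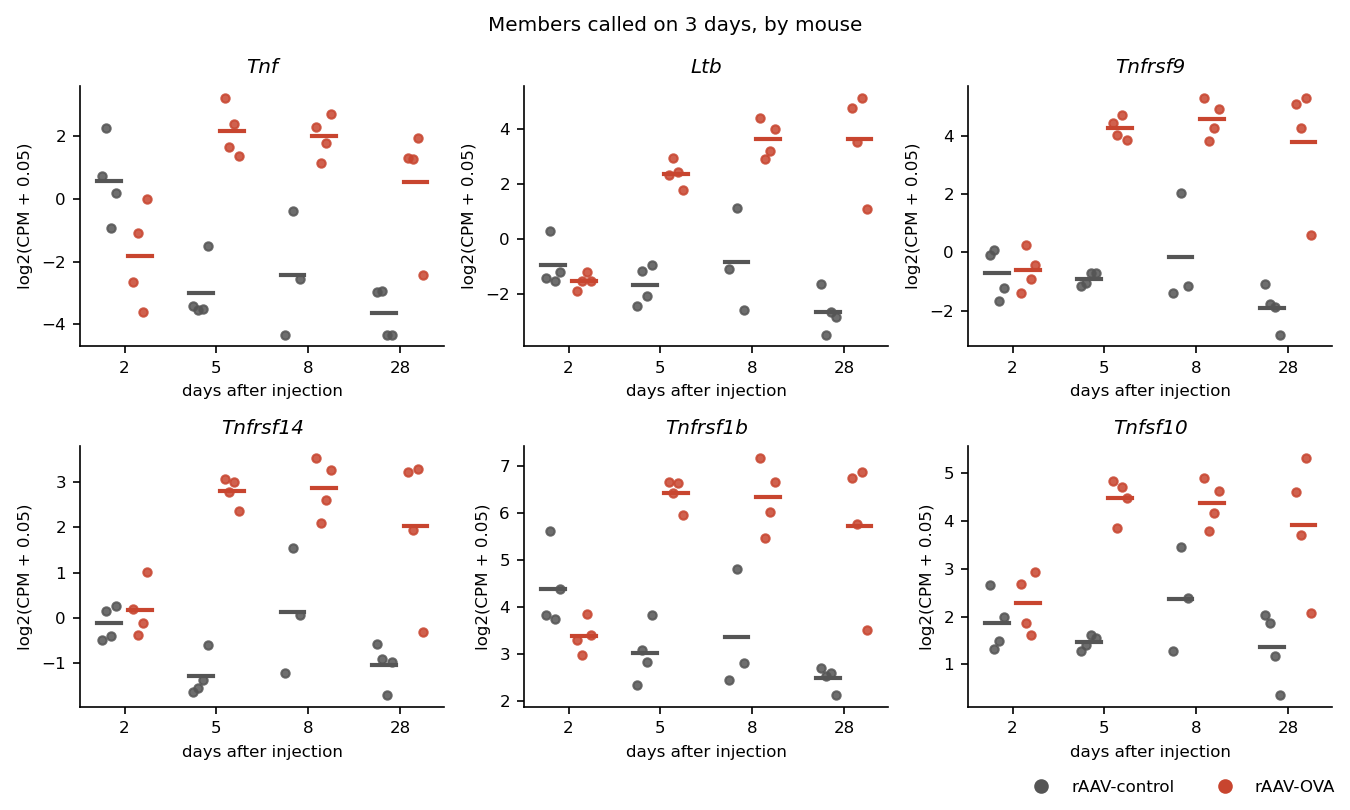
Level of 6 members called on 3 days in each mouse, as log2(CPM + 0.05) (vertical axis), by day after injection (horizontal axis), with rAAV-control in grey and rAAV-OVA in red. Points are single mice and bars are group means. The groups are apart from 5 d on for all 6, with D720 as the high rAAV-control point at 8 d and D844 as the low rAAV-OVA point at 28 d.

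Ltb (ENSMUSG00000024399.6) encodes lymphotoxin beta, a membrane ligand of lymphocytes that signals through Ltbr on stromal and myeloid cells. Its largest difference was at 28 d. There rAAV-OVA mice had 27.2, 11.6, 35.2 and 2.07 CPM and rAAV-control mice 0.269, 0.0401, 0.11 and 0.0915 CPM. D844 was again lowest in its group and yet above all rAAV-control mice, and the Log2FC was 5.90 ± 0.76 (FDR = 2.55e-05). It was 3.14 ± 0.64 at 5 d (FDR = 0.000822) and 3.99 ± 0.67 at 8 d (FDR = 0.000378). Without surrogate variables it was 4.06 at 5 d and 7.15 at 28 d. The change from 5 d to 28 d did not pass the test in edgeR but did in DESeq2.

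Ltbr (ENSMUSG00000030339.8) had 27.6, 24.03, 24.4 and 23.4 CPM in rAAV-OVA mice at 5 d and 7.07, 12.2, 10.7 and 12.6 CPM in rAAV-control mice. This was a rise of 1.96-fold with groups apart (Log2FC 0.97 ± 0.21, FDR = 0.00149). At 28 d the Log2FC was 0.96 ± 0.21 (FDR = 0.00188). At 8 d it was 0.66 ± 0.22, just under the limit on Log2FC, with an FDR of 0.0384.

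Tnfrsf9 (ENSMUSG00000028965.14), also called 4-1BB, is a costimulatory receptor that T cells display after activation, and Tnfsf9 is its ligand on antigen-presenting cells. At 28 d Tnfrsf9 stood at 33.9, 19.2, 39.2 and 1.45 CPM in rAAV-OVA mice and at 0.423, 0.241, 0.22 and 0.0915 CPM in rAAV-control mice. The Log2FC was 5.03 ± 0.68 (FDR = 4.03e-05), and without surrogate variables 6.54. It was 4.26 ± 0.58 at 5 d (FDR = 2.18e-05) and 4.13 ± 0.61 at 8 d (FDR = 0.00015). No rAAV-OVA mouse overlapped with a rAAV-control mouse on any of these days.

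Tnfsf9 itself was near the lower limit of the table and was called at 5 d alone. Its values there were 1.51, 1.11, 1.59 and 1.08 CPM in rAAV-OVA mice against 0.0895, 0.402, 0.297 and 0.574 CPM. The groups were apart, with a Log2FC of 1.44 ± 0.45 (FDR = 0.018), but without rAAV-OVA mouse D786 the FDR was 0.0584. At 8 d and 28 d the Log2FC was 1.32 ± 0.48 and 0.96 ± 0.48, with FDRs of 0.0552 and 0.125, and its change from 5 d did not pass the test. The groups overlapped at 8 d but not at 28 d, where they held 0.493 to 1.57 against 0.293 to 0.385 CPM. Tnfsf9 was called at 28 d without covariates (Log2FC 1.42, FDR = 0.0182) and with the batch label in their place (1.41, FDR = 0.02). DESeq2 without shrinkage called it at 8 d, as did edgeR without D703 or D720.

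Tnfrsf14 (ENSMUSG00000042333.17), known as HVEM, is a receptor of lymphocytes and myeloid cells for LIGHT (Tnfsf14) and also binds the inhibitory receptor BTLA. At 5 d it had 8.34, 6.81, 8.03 and 5.12 CPM in rAAV-OVA mice and 0.268, 0.292, 0.334 and 0.61 CPM in rAAV-control mice. The lowest rAAV-OVA mouse was far above the highest rAAV-control mouse, with a Log2FC of 3.31 ± 0.49 (FDR = 4.76e-05). The Log2FC was 2.67 ± 0.49 at 8 d and 2.58 ± 0.51 at 28 d, with FDRs of 0.000701 and 0.00081.

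The promoters of the 5 members called on 3 days with the largest Log2FC at 5 d are shown to give the sequence ahead of the genes with the largest differences. RefSeq windows were found for 18 of the 23 members. The 250 bases before the start are given 5′ to 3′ in GRCm38.p6, the build of the sequence table and not that of the counts. Capitals mark matches, on either strand, to the NF-κB consensus, to TTCNNNGAA (GAS, bound by STAT dimers) or to GAAANNGAAA (an ISRE core, bound by interferon regulatory factors). For Tnfrsf9 the second of its 2 listed starts is shown. The first holds no match.
Tnfrsf9, chr4:150927749-150927998, plus strand: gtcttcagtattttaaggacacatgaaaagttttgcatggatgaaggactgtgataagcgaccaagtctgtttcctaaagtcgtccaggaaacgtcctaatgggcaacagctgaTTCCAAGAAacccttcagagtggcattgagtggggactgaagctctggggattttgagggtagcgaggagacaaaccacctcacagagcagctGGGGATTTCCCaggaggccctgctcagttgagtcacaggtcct
Tnf, chr17:35202008-35202257, minus strand: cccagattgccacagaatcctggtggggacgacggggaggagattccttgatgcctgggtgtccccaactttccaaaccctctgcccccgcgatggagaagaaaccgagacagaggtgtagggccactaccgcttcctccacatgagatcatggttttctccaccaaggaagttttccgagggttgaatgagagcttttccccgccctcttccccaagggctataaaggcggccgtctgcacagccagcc
Tnfrsf14, chr4:154928078-154928327, minus strand: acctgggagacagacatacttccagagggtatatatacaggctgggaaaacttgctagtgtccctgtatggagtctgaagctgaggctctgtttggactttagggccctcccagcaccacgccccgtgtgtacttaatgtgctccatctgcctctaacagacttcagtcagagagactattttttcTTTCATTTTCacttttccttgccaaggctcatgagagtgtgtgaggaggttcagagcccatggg
Ltb, chr17:35194257-35194506, plus strand: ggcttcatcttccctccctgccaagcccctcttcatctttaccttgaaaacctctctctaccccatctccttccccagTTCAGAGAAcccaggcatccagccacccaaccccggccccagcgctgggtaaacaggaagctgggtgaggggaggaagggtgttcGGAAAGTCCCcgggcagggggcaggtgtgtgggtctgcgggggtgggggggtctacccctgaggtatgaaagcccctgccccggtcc
Tnfrsf1b, chr4:145246871-145247120, minus strand: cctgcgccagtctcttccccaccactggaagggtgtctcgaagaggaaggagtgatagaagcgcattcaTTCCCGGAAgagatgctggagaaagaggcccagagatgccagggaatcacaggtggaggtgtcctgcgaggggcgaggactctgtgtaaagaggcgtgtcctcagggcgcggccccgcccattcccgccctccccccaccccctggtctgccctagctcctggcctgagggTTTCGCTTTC
Tnf holds no match in its window. In Tnfrsf9 there are 2 matches to NF-κB that overlap each other and 1 to GAS, in Ltb 1 to NF-κB and 1 to GAS, in Tnfrsf14 1 to ISRE, and in Tnfrsf1b 1 to GAS and 1 to ISRE. Matches of different motifs did not overlap in these windows. Among the 18 members with a window, 3 held the NF-κB consensus (Ltb, Tnfrsf8 and Tnfrsf9), 6 the GAS motif and 3 the ISRE core. Of the 11563 genes of the count table with a window, counted in the same way over all starts of a gene, 5.79%, 7.06% and 3.25% held them. Of all 32851 windows, it was 3.9%, 7.02% and 2.98%. A match is a run of letters and not a measured binding site.

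Tnfsf10 (ENSMUSG00000039304.12) encodes TRAIL, a ligand induced by interferons that triggers apoptosis through Tnfrsf10b, its death receptor in the mouse. At 5 d Tnfsf10 had 28.5, 14.5, 26.2 and 22.2 CPM in rAAV-OVA mice and 2.37, 2.59, 3.005 and 2.89 CPM in rAAV-control mice. The groups were wide apart, with a Log2FC of 2.40 ± 0.45 (FDR = 0.000425). The Log2FC was 1.78 ± 0.46 at 8 d (FDR = 0.00984) and 2.02 ± 0.46 at 28 d (FDR = 0.0023). At 8 d the FDR was 0.0697 without D696 and 0.126 without D722.

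Tnfrsf10b (ENSMUSG00000022074.7) was scarce. Its values at 8 d were 3.01, 1.46, 1.52 and 2.29 CPM in rAAV-OVA mice and 0.459, 1.30 and 0.716 CPM in rAAV-control mice, a Log2FC of 1.16 ± 0.38 (FDR = 0.0343). The groups did not overlap, but leaving out any single mouse of that day gave an FDR over the threshold, from 0.0511 to 0.289. At 5 d the Log2FC was 1.136 ± 0.35 (FDR = 0.0183), and the groups did not overlap. At 28 d D844 lay among the rAAV-control mice at 0.345 CPM, and the Log2FC was 1.10 ± 0.38 (FDR = 0.0296), a call lost without any one of D661, D667, D843, D851 or D706 (FDR = 0.0521 to 0.136). Without surrogate variables it was 1.90 (FDR = 0.00177). The 5 d call was lost without D786 (FDR = 0.0909). With limma voom the calls at 8 d and 28 d were lost (FDR = 0.0502 and 0.052). The 8 d call was also lost without covariates (FDR = 0.0638).

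At 2 d Tnfrsf10b was the other way round, with 0.987, 1.09, 0.845 and 0.477 CPM in rAAV-OVA mice, all below the 1.83, 1.53, 1.13 and 1.35 CPM of rAAV-control mice. The Log2FC of -0.87 ± 0.34 did not pass the test at 2 d (FDR = 0.451). The change of the difference from 2 d to 5 d was tested after these values were seen. It was 2.00 ± 0.49 on the log2 scale (FDR = 0.00578). Across the members this change was called upwards for 15 of 23 and downwards for 1, Tnfrsf19, where 20.8% of all genes were called in either direction. Both comparisons behind it use the same model, and no alternative was run for this change.

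Fas (ENSMUSG00000024778.14) is the death receptor that the ligand of cytotoxic T cells engages. Its values at 28 d were 10.4, 5.43, 12.5 and 2.97 CPM in rAAV-OVA mice and 0.847, 1.32, 1.32 and 2.06 CPM in rAAV-control mice. All rAAV-OVA mice were above, D844 being the lowest, and the Log2FC was 1.74 ± 0.46 (FDR = 0.0057). At 5 d it was 1.53 ± 0.44 (FDR = 0.0114). At 8 d it was 1.46 ± 0.47 (FDR = 0.0317), where D720 at 5.51 CPM overlapped with rAAV-OVA mouse D701 at 5.12 CPM. That last call was lost without covariates (FDR = 0.0794) and without any one of D700, D701, D702, D696 or D722 (0.0735 to 0.362).

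The cytokines BAFF (Tnfsf13b, ENSMUSG00000031497.11) and APRIL (Tnfsf13, ENSMUSG00000089669.8) come from myeloid cells, astrocytes and other stromal cells, support B cells and plasma cells, and share the receptor TACI (Tnfrsf13b). At 5 d Tnfsf13b had 9.42, 8.87, 9.42 and 7.75 CPM in rAAV-OVA mice and 0.805, 1.06, 1.45 and 1.63 CPM in rAAV-control mice. These values were tightly grouped, and the Log2FC was 2.12 ± 0.44 (FDR = 0.000923). It was 1.89 ± 0.45 at 8 d (FDR = 0.00568) and 1.67 ± 0.45 at 28 d (FDR = 0.00685). The 8 d call was lost without D722 (FDR = 0.114).

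Tnfsf13 at 5 d had 2.71, 3.30, 2.59 and 2.19 CPM against 0.761, 1.02, 1.26 and 1.02 CPM, with no overlap and a Log2FC of 0.95 ± 0.36 (FDR = 0.0472). This call was lost without any one of 5 of the 8 mice (FDR = 0.0541 to 0.118). Tnfsf13 was not called at 8 d (Log2FC 0.63 ± 0.37) or 28 d (0.63 ± 0.39), but at 28 d it was called both without covariates and with the batch label in place of the surrogate variables. Its groups did not overlap at 8 d and overlapped at 28 d.

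Tnfrsf13b (ENSMUSG00000010142.13) was called at 8 d and 28 d. At 28 d it had 9.97, 5.14, 12.7 and 2.45 CPM in rAAV-OVA mice and 1.19, 1.88, 1.17 and 1.37 CPM in rAAV-control mice. The Log2FC was 1.92 ± 0.40 (FDR = 0.0012). At 5 d the groups did not overlap either, but the Log2FC of 0.90 ± 0.38 did not pass the test (FDR = 0.0788), while without covariates it was 1.33 (FDR = 0.0101). At 8 d it was 1.31 ± 0.40 (FDR = 0.0249), lost without D700, D696 or D722 (FDR = 0.1005 to 0.215). At 2 d the rAAV-OVA mice, at 2.06 to 3.086 CPM, lay narrowly below the rAAV-control mice, at 3.092 to 4.59 CPM, with a Log2FC of -0.55 ± 0.36 (FDR = 0.688). The change from 2 d to 5 d was 1.45 ± 0.53 and did not pass the test (FDR = 0.0526). Of the B cell markers, 1 of 5 was in the table, Cd79b, whose level lay between 0.276 and 3.08 CPM in rAAV-OVA mice and between 0.137 and 0.183 CPM in rAAV-control mice at 28 d. Cd79b was itself called higher at 28 d, with a Log2FC of 2.80, although Rag1 deficiency leaves these mice without mature B cells. Which cells held Cd79b, and its part in the Tnfrsf13b differences, was not tested.

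Tnfrsf11a encodes RANK and Tnfrsf11b osteoprotegerin, a secreted decoy that captures the RANK ligand. Tnfrsf11b at 5 d had 5.47, 2.74, 4.05 and 4.28 CPM in rAAV-OVA mice and 0.805, 1.10, 1.04 and 1.17 CPM in rAAV-control mice, a Log2FC of 1.50 ± 0.44 (FDR = 0.0128). It was 1.40 ± 0.46 at 28 d (FDR = 0.0213), and the groups were apart on both days. Without D661 or D851 the 28 d FDR was 0.0755 and 0.0827. At 8 d it was 0.87 ± 0.45 and not called.

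Tnfrsf11a at 28 d had 8.81, 4.93, 11.4 and 2.76 CPM in rAAV-OVA mice and 2.42, 1.96, 2.89 and 2.93 CPM in rAAV-control mice. D844 lay within the rAAV-control range, and the Log2FC was 1.24 ± 0.38 (FDR = 0.0154), or 0.95 without D851 (FDR = 0.0861). The call at 5 d (Log2FC 0.98 ± 0.37, FDR = 0.0474) was lost with limma voom (FDR = 0.0574) and without any one of 7 of the 8 mice of that day (0.0511 to 0.14).

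Tnfrsf22 and Tnfrsf23 are closely similar mouse TRAIL decoy receptors, and Salmon divides reads that fit both by probability. How many reads were shared was not measured here, and their levels are uncertain to that extent. Tnfrsf23 at 5 d had 1.82, 2.80, 1.99 and 1.42 CPM in rAAV-OVA mice against 0.492, 0.694, 0.519 and 0.61 CPM, a Log2FC of 1.56 ± 0.39 (FDR = 0.00445). At 8 d the Log2FC was 1.10 ± 0.41 and not called (FDR = 0.0614), although the groups did not overlap. At 28 d it was 1.32 ± 0.41 (FDR = 0.0169) with overlapping groups, and without D843 the FDR was 0.0546. Tnfrsf22 was called at 28 d alone, at 3.46, 2.22, 5.21 and 1.76 CPM against 1.50, 1.48, 1.79 and 1.78 CPM. Here D844 fell within the rAAV-control range, and the Log2FC of 0.76 ± 0.28 (FDR = 0.0416) was lost with limma voom (FDR = 0.0897) and without any one of D661, D843, D851 or D706 (0.0613 to 0.107). Without D845 the Log2FC was 0.49.

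Tnfsf12 encodes TWEAK, a ligand of many tissues. Its gene lies next to Tnfsf13, and transcripts that span both are known, so reads may be divided between them. At 28 d Tnfsf12 had 15.5, 10.2, 16 and 8.62 CPM in rAAV-OVA mice and 5.20, 6.90, 8.27 and 8.51 CPM in rAAV-control mice. The groups were apart by a small margin, with a Log2FC of 0.67 ± 0.22 (FDR = 0.0238) that lay close to the limit on Log2FC. Without any one of D661, D843 or D851 it was 0.59, 0.56 and 0.55 and was not called. It was -0.18 ± 0.22 at 5 d and 0.12 ± 0.23 at 8 d, not called on either day.

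Tnfrsf8 is CD30, a receptor of activated lymphocytes. At 28 d it had 1.15, 1.66, 1.03 and 3.38 CPM in rAAV-OVA mice and 0.5, 1.08, 0.695 and 0.595 CPM in rAAV-control mice, and the highest value was that of D844. The groups overlapped, and the Log2FC of 1.41 ± 0.37 (FDR = 0.00605) became 0.73 without D844 (FDR = 0.205). Tnfrsf8 was thereby highest in D844, the mouse in which 20 of the 23 members had the lowest value of their group.

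Tnfrsf25, or DR3, is a death domain receptor of T cells and was the only member called lower on any of the 4 days. At 28 d it had 1.92, 2.36, 1.27 and 0.345 CPM in rAAV-OVA mice and 7.20, 4.77, 3.29 and 1.6 CPM in rAAV-control mice. The groups overlapped, and the Log2FC was -1.66 ± 0.58 (FDR = 0.0311). The lowest value was again that of D844, and without it the Log2FC was -0.34 (FDR = 0.68). Leaving out D661, D843 or D851 gave an FDR of 0.0790 to 0.09, and within batch 1 alone the Log2FC was -0.15. At 2, 5 and 8 d the Log2FC was 0.55, 0.29 and 0.55 and was not called.

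Tnfrsf19 and Tnfrsf21 were present in all 31 mice. Tnfrsf19, also called TROY, is known from neural progenitors and glia. At 5 d it had 56.6, 74.0, 68.5 and 66.1 CPM in rAAV-OVA mice, all below the 90.6, 89.4, 79.9 and 86.6 CPM of rAAV-control mice. At 28 d the order was opposite, with 124, 96.3, 118 and 85.1 CPM in rAAV-OVA mice, all above the 73.8, 69.1, 84.0 and 63.0 CPM of rAAV-control mice. The Log2FC was -0.46 ± 0.12 at 5 d (FDR = 0.0057) and 0.45 ± 0.12 at 28 d (FDR = 0.00693). Both passed the FDR but not the limit on Log2FC, so Tnfrsf19 was not called on either day.

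The change of the Tnfrsf19 difference from 5 d to 28 d was 0.92 on the log2 scale (FDR = 0.00121). It was the single member called in the tests between 5 d, 8 d and 28 d, and it was called in all 24 alternatives run for it, at 0.84 to 1.02. Between 5 d and 28 d 1 member was called against 9.63% of all genes, with 4 members and 27.1% of all genes at an unadjusted p under 0.05. Between 5 d and 8 d it was 0 members against 0.192%, with 1 member and 7.29% of all genes at such a p. Between 8 d and 28 d it was 0 members against 0%, with 2 members and 16.1%. Over the 3 tests together DESeq2 called 4 members and 14% of all genes, adding Ltb, Tnfrsf25 and Tnfsf12 to Tnfrsf19, and limma voom called 2 and 9.46%. Of the astrocyte markers, whose summed level was 2981 to 4328 CPM in rAAV-control and 4140 to 5177 CPM in rAAV-OVA mice at 5 d, 1 was called lower at 5 d and 1 higher at 28 d. At 28 d their sum was higher in every rAAV-OVA mouse, at 3030 to 5468 against 2274 to 2854 CPM. Their part in the Tnfrsf19 values was not tested.

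Tnfrsf21, or DR6, a death domain receptor of neurons and oligodendrocyte precursors, lay between 80.0 and 122 CPM in rAAV-OVA mice and between 83.7 and 130 CPM in rAAV-control mice over all days. Its Log2FC ran from -0.17 ± 0.12 at 8 d to 0.11 ± 0.11 at 2 d and passed the test on no day.

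**Figure D4:**
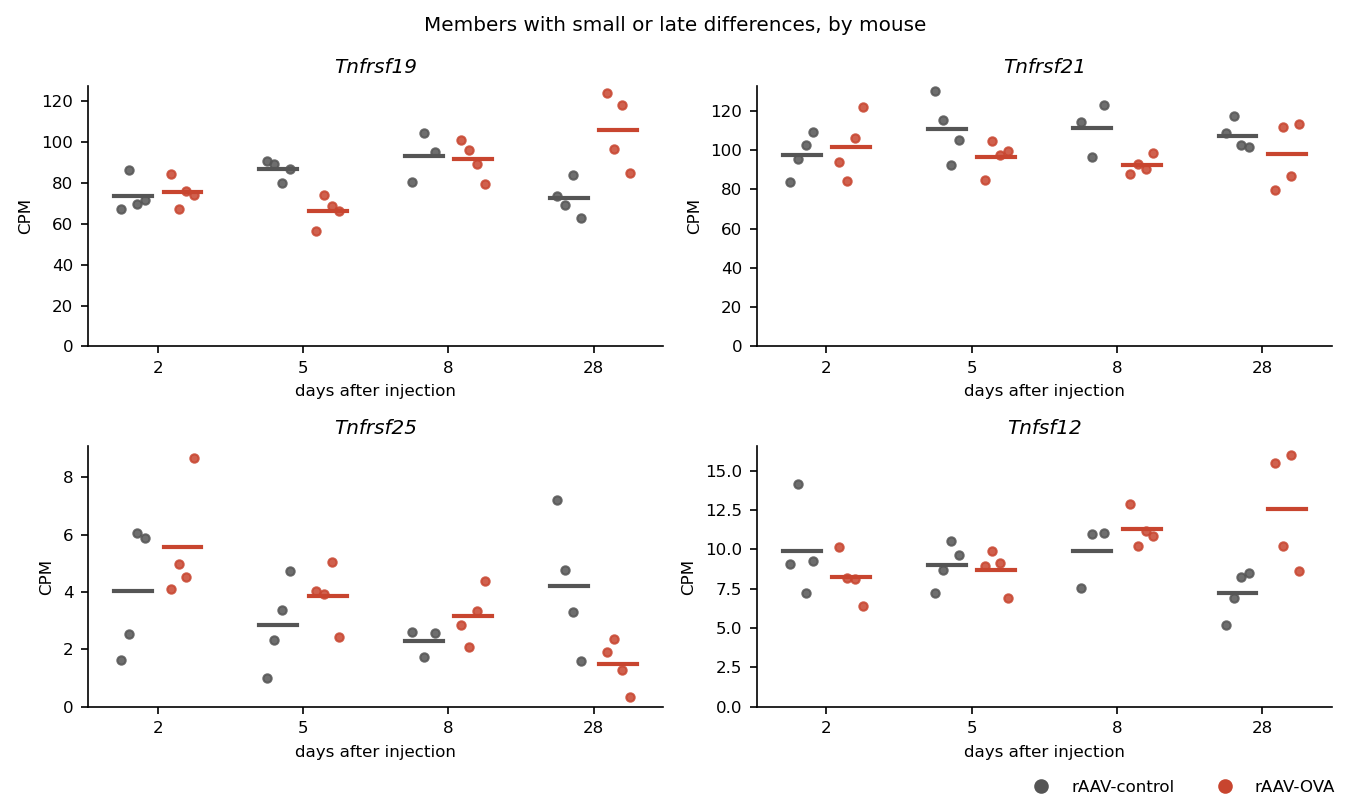
Level in CPM (vertical axis, from 0) of Tnfrsf19, Tnfrsf21, Tnfrsf25 and Tnfsf12 in each mouse by day after injection (horizontal axis), with rAAV-control in grey and rAAV-OVA in red. Points are single mice and bars are group means. Tnfrsf19 of rAAV-OVA mice lies below all rAAV-control mice at 5 d and above all of them at 28 d, while Tnfrsf21 overlaps at every day.

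The genes downstream of the receptors were taken from lists that were compiled by hand. Beside their counts stand the 9.56%, 9.36% and 12.7% of all genes called higher at 5, 8 and 28 d. Of 23 adaptors and signal transducers, 10 rose at 5 d (43.5%), 12 at 8 d (52.2%) and 9 at 28 d (39.1%), and none was called lower, with list medians of 0.42, 0.68 and 0.51 on the log2 scale. The largest changes were those of Mlkl, the executor of necroptosis, of its kinase Ripk3 and of Traf1, an adaptor induced by NF-κB. Mlkl had 8.63 ± 1.52 CPM (SD, n = 4) in rAAV-OVA mice at 5 d and 0.223 ± 0.15 CPM in rAAV-control mice, a Log2FC of 4.21 ± 0.67 (FDR = 9.54e-05). Ripk3 rose by 2.62 on the log2 scale at 5 d, 2.84 at 8 d and 2.73 at 28 d. Traf1 had 23.2 ± 16.2 CPM against 0.894 ± 0.457 CPM at 28 d, a Log2FC of 3.92 ± 0.48 (FDR = 1.64e-05), after 2.65 at 5 d and 2.87 at 8 d. Birc3, an inhibitor of apoptosis and ubiquitin ligase, followed at 28 d with a Log2FC of 2.55 ± 0.51 (FDR = 0.0009).

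Among 9 ubiquitin editing and linear ubiquitin enzymes, 1 rose at 5 d (11.1%), 2 at 8 d (22.2%) and 2 at 28 d (22.2%), none fell, the share at 5 d was near that of all genes, and the medians were 0.15, 0.34 and 0.33. They were Tnfaip3 (A20), which removes ubiquitin from signaling complexes, with a Log2FC of 1.07, 1.52 and 1.22, and its partner Tnip1, with 0.72 at 8 d and 0.75 at 28 d. Of 9 genes of ligand processing and shedding, 5 rose at 5 d (55.6%), 2 at 8 d (22.2%) and 3 at 28 d (33.3%), and none fell. The protease that sheds TNF, Adam17, rose by 0.99, 1.13 and 1.02 on the log2 scale. Its cofactor Rhbdf2 rose by 2.15, 2.06 and 1.52, Rhbdf1 by 1.20 at 5 d and Frmd8 by 0.81 at 28 d.

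Of 22 textbook TNF target genes, 16 were in the table, and 12 rose at 5 d (75%), 11 at 8 d (68.8%) and 9 at 28 d (56.2%), with medians of 1.42, 1.69 and 1.48 and none called lower. Sele, Selp, Cxcl1, Cxcl2, Ccl20 and Il6 of this list were not in the table. At 5 d the largest differences were those of the chemokines Cxcl10, at 253 ± 102 CPM against 4.13 ± 4.56 CPM (Log2FC 4.81 ± 0.87, FDR = 0.000307), and Ccl2 (Log2FC 4.58 ± 0.85), and of the cytokine Lif (3.59 ± 0.42). At 8 d they were Tnfaip2 (3.81 ± 0.75), Ccl5 (3.38 ± 0.90) and Ccl2 (3.24 ± 0.85). At 28 d they were Ccl5 (4.49 ± 1.02), Tnfaip2 (3.66 ± 0.82) and the adhesion molecule Icam1 (2.72 ± 0.66). Several of these genes also respond to interferons. Of 9 further superfamily members that do not carry a Tnf symbol, 5 were in the table, and 1 rose at 5 d, 1 at 8 d and 2 at 28 d, none fell, and the medians were 0.25, 0.28 and 0.55. Cd40, the costimulatory receptor of antigen-presenting cells, rose by 3.49, 2.56 and 2.36 at 5, 8 and 28 d, and Eda2r by 1.24 at 28 d. At 2 d no gene of these lists was called.

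In tissue RNA, more cells of a type and more RNA per cell cannot be told apart, and markers of infiltrating cells moved with the members. The 3 T cell markers used (Cd8a, Trbc2 and Lck, of 11 listed) were all called higher at 5, 8 and 28 d. Their summed level was 115 to 176 CPM in rAAV-OVA against 1.88 to 5.01 CPM in rAAV-control mice at 5 d, 181 to 589 against 4.14 to 39.6 CPM at 8 d, and 35.8 to 722.8 against 1.51 to 2.54 CPM at 28 d. At 2 d it was 2.45 to 3.67 against 3.44 to 7.17 CPM. Of 8 monocyte markers, 6 were called higher at 5 d, 6 at 8 d and 5 at 28 d, with sums of 343 to 504 against 56.2 to 78.8 CPM at 5 d and 66.6 to 291 against 58.6 to 72.6 CPM at 28 d. Ly6c2, a marker of inflammatory monocytes, had a Log2FC of 6.04 ± 0.75 at 5 d.

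Both cytotoxic effector genes in the table, of 6 listed, were called higher at 5, 8 and 28 d. Their sum was 18.6 to 58.2 CPM in rAAV-OVA against 0.144 to 0.548 CPM in rAAV-control mice at 5 d. At 8 d it was 18.2 to 54.8 against 0.501 to 12.6 CPM, with D720 the highest rAAV-control mouse. At 28 d it was 1.03 to 13.6 against 0 to 0.924 CPM. Of 7 dendritic cell markers 5 were in the table, and 3 were called higher on each of these days, among them Ccr7 and Itgax. Of 8 microglia markers 2 were called higher and 1 lower at 5 d, none was called at 8 d, and 5 were called higher at 28 d. Their sum was 763 to 808 against 409 to 604 CPM at 5 d. The single neutrophil and natural killer cell markers in the table, of 6 and 5 listed, were called on no day. Cd79b, the single B cell marker in the table, was called higher at 28 d alone. Of 6 endothelial markers 1 was called lower at 5 d and 3 higher at 28 d. Of 6 oligodendrocyte markers 4 were called lower at 5 d and none at 8 d or 28 d. Of 8 hippocampal neuron markers 5 were called lower at 5 d, none at 8 d and 5 at 28 d. At 5, 8 and 28 d, 9.56%, 9.36% and 12.7% of all genes were called higher, and 4.67%, 0.588% and 4.86% lower. The part of these cells in the members' values was not tested.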

How the data were processed

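Per the labels and the study's methods, the authors trimmed reads with fastp, quantified GENCODE M29 transcripts with Salmon 1.8.0, imported them per gene with tximeta and deposited the estimated counts, unnormalized. Genes needed 15 or more counts in 15 or more of 31 mice. The authors tested them with DESeq2 1.36.0. Values were rounded to whole numbers on loading, and after rounding the 2 deposited tables of expected counts were identical (0 cells differ). The count total per mouse had a median of 27024978. Groups and batch came from the labels, and 23 mice were in batch 1 and 8 in batch 2, with all mice of 5 d and 8 d in batch 1 and 2 mice of each batch per group at 2 d and 28 d.

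Here the counts were tested with edgeR 4.0.16 in R 4.3.3 (TMM factors of 0.897 to 1.11, robust quasi-likelihood F-test) with 8 group means and, from sva 3.50.0, 2 surrogate variables. FDR values are Benjamini-Hochberg over 15648 genes, and changes between days are interaction contrasts of that fit. The SE is the Log2FC divided by the root of F. DESeq2 1.42.0, with and without ashr 2.2.63, limma 3.58.1 voom, size factors, other covariates, filters, single days, single batches and each mouse left out were alternatives. The steps were tested on simulated data. Members and gene lists were chosen with earlier results of these data known, and the lists were compiled by hand. A gene of these lists is not reported here and was left out of the list sums. Every member is named, those called get the values of each mouse on the day of the largest Log2FC, and list genes are the 3 largest called per day. Salmon was set by the authors to detect the library type, strand included. The p-values of the main fit use the spread between mice within groups, estimated over all 8 groups together and not for each day. Promoters are from RefSeq (GRCm38.p6). Human samples of the study were not analysed here.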

Additional observations from a re-analysis of the deposited data

Results flagged for a closer look

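Within groups of 4 mice, 7 of 161 member values had a highest or lowest mouse whose gap to the next, relative to the range of the group, exceeded Dixon's limit, and chance flags about 1 in 20 groups. At 2 d, Ltb in rAAV-control mouse D743 was 1.19 CPM against 0.296 to 0.382 in the others, and Tnfsf13 in rAAV-OVA mouse D684 was 2.86 CPM against 0.877 to 1.21. In rAAV-OVA mouse BEC-B542 at 2 d, Tnfrsf8 and Tnfsf9 were both at 0.330 CPM, against 0.715 to 0.768 and 0.463 to 0.487 in the others. At 5 d, Tnf in rAAV-control mouse D755 was 0.305 CPM against 0.0365 to 0.0447. At 8 d, Tnfrsf23 in rAAV-OVA mouse D701 was 1.17 CPM against 1.96 to 2.08, and Tnfsf9 in rAAV-OVA mouse D700 was 2.27 CPM against 0.761 to 0.916.

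For 3 members every rAAV-OVA mouse lay below every rAAV-control mouse on one day and above on another, Tnfrsf19 at 5 d and 28 d, and Tnfrsf10b and Tnfrsf13b at 2 d and 5 d. The same held for 3.25% of all genes over any pair of the 4 days. The difference of Tnfrsf19 was 0.92 higher at 28 d than at 5 d on the log2 scale, as tested above. The change from 2 d to 5 d was 2.00 for Tnfrsf10b (FDR = 0.00578) and 1.45 for Tnfrsf13b, which did not pass the test (FDR = 0.0526).

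From 2 d to 5 d the difference changed for 16 of the 23 members in edgeR's test, against 20.8% of all genes. Among ligands the change in Log2FC was 6.56 for Tnf, 4.05 for Ltb, 3.02 for Tnfsf13b, 2.32 for Tnfsf9, 2.06 for Tnfsf10 and 1.44 for Tnfsf13. Among the death domain receptors it was 2.34 for Fas and 1.84 for Tnfrsf1a, besides Tnfrsf10b. For the other receptors it was 4.47 for Tnfrsf9, 3.61 for Tnfrsf1b, 2.99 for Tnfrsf14, 2.25 for Tnfrsf23, 1.70 for Tnfrsf11a and 1.31 for Ltbr. It was downwards for Tnfrsf19, at -0.49. Part of each change is the 2 d difference, at which no member was called, and no alternative was run for this change. The mice of 2 d came from both batches and those of 5 d from batch 1 alone. At 2 d the difference of mean log2(CPM + 0.5) in batches 1 and 2 was -2.15 and -0.49 for Tnf. It was -1.33 and -0.03 for Tnfsf13b, -0.65 and 0.004 for Ltb, and -0.49 and -0.46 for Tnfsf9.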

How the results depend on the processing

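No paired analysis was possible because each mouse belongs to a single group and its replicate number was given in accession order. With a filter of 15 counts in every mouse, which leaves 13 members, 9 were called at 5 d, 5 at 8 d and 11 at 28 d (12.7%, 6.07% and 16.8% of all genes so filtered). The difference changed between days for 2 members (9.34% of those genes). Groups did not overlap for 1 member at 2 d, 10 at 5 d, 2 at 8 d and 10 at 28 d (3.98%, 40.8%, 26% and 28.9% of those genes). The mice of 8 d alone without covariates gave 0 calls (0% of all genes) and those of 28 d alone 13 (13.5%). At 28 d batch 1 alone gave 11 (7.16%) and batch 2 alone 0 (0%, with 4 members and 13% of all genes at an unadjusted p under 0.05), with 2 mice a group. The changes between days were called for 4 members by DESeq2 with or without ashr (14% of all genes) and for 2 by limma voom (9.46%) and by the batch label with surrogate variables (10.7%), and the cause was not tested. Leaving out each mouse in turn gave 0 to 0 calls at 2 d, 12 to 17 at 5 d (11.7% to 15.8% of all genes), 4 to 12 at 8 d (3.23% to 10.8%) and 13 to 19 at 28 d (14.1% to 20.5%). It gave 1 to 3 members with changes between days. The share of all genes with such changes was 9.64% in the fit of all mice and was not counted without each mouse. Of 980 recomputed values of 54 Log2FC, each of a member on a day when it was called or its groups did not overlap, 852 kept their side of the threshold, 119 lost the call and 9 gained it, and the direction was kept in each. Outside these 54, Ltbr and Tnfsf9 at 8 d and Tnfsf13 at 28 d were called under some alternatives. DESeq2's size factors in place of TMM moved the median of all genes by 0.0184 at most. Members under 15 counts in some mice are limited by depth.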
